A study of Mus musculus with 21 samples.

Results

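Mouse genes named as ADAM, ADAMTS or MMP metalloproteases or as TIMP inhibitors were described across endothelial cells of brain, lung and liver. They were chosen by symbol, as rows of the bulk RNA table named Adam, Adamts, Mmp or Timp followed by a number, and no measured value entered the choice. The rule gave 70 of the 24176 gene symbols in the table: 26 Adam, 19 Adamts, 21 Mmp and 4 Timp genes. All 70 were also found in the single-cell matrix.

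Endothelial cells line blood vessels, and they both sit on and remodel a basement membrane. MMPs cut matrix proteins, ADAMTS proteases are secreted and cut proteoglycans, procollagens and von Willebrand factor, and ADAMs are membrane proteins that release the outer parts of other membrane proteins, although several ADAMs lack a working catalytic site and act in adhesion. TIMPs are small secreted proteins that bind the active site of these proteases and block it.

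All groups came from C57BL/6J mice aged 2 to 4 months, with no treatment named in the labels. Live cells that carried CD31 and lacked PDGFRβ and CD45 were sorted after perfusion and enzymatic digestion of each tissue, with a myelin removal step for brain alone. Bulk RNA was sequenced from 3 brain, 3 lung and 3 liver libraries, and a single library held 9405 barcodes of brain cells. How many mice went into a library is not given in the sources used here. P-values therefore measure only how these libraries vary, which may be technical.

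Library totals ran from 15907235 to 21792786 counts in brain, from 2992101 to 11308897 in lung and from 18485600 to 25690571 in liver. The shallowest was lung 2, in which 1 count was worth 0.334 CPM, the unit of counts scaled to the library total that is used throughout. Summed CPM of 10 endothelial markers was 7136 to 7627 in brain, 9409 to 13550 in lung and 5390 to 5759 in liver. Markers of other cells differed between tissues: 9 leukocyte markers summed to 114.2 to 164.5 CPM in lung against at most 7.858 in brain and 18.96 in liver, and 9 lung epithelial markers to 378.1 to 1838 CPM in lung against at most 2.955 and 14.44. Summed CPM of 8 hepatocyte markers was 286.2 to 716.8 in liver and 4.188 to 6.897 in lung. In brain it was 47.27 to 963.8, with Alb, Apoa1, Apoc3, Cyp3a11 and Fgb at 0. In bulk RNA, fewer cells of a type and less RNA per cell cannot be told apart.

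Of the 70 genes, 33 passed the filter on low counts, 20 had counts below it with no tissue mean above 3.13 CPM, and 17 had no count in any of the 9 libraries. A gene was called different when the Benjamini-Hochberg adjusted p of edgeR's quasi-likelihood test over all 13216 genes tested was under 0.05 and the absolute log2 fold change was at least 1. Brain against lung gave 1 gene called higher in brain and 6 lower, where 5.05% and 7.25% of all genes tested were called. Brain against liver gave 5 higher and 5 lower in brain, with 7.45% and 8.72% of all genes called. Lung against liver gave 6 higher and 4 lower in lung, with 8.04% and 7.02% of all genes called. Some of these counts fell when a lung library was left out, as did those of all genes. Without lung 2 the genes of the family lower in brain than in lung numbered 3, and all genes so called fell from 958 to 664. Without lung 2 or lung 3 those of the family lower in lung than in liver numbered 1. All genes so called fell from 928 to 598 and 539. The 1 gene of the family higher in brain than in lung became 2 without brain 2, brain 3 or lung 1. All genes so called fell from 667 to 534, 499 and 551. At an unadjusted p under 0.05 there were 12 of the 33 in each comparison. The share of all genes at that threshold is not given here, so these counts have no background. In all, 14 of the 33 were called at least once, where 25.9% of all genes tested were.

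The median log2 difference over the 33 genes was -0.88 for brain minus lung, 0.07 for brain minus liver and 0.94 for lung minus liver, where the medians of all genes tested were 0, 0.01 and 0. Libraries of the tissues did not overlap for 12 genes between brain and lung, 13 between brain and liver and 13 between lung and liver, where 33.8%, 33.2% and 34.5% of all genes did not. Against both other tissues, Mmp25 alone was called higher in brain (2.41% of all genes were), Timp2 and Adamts9 higher in lung (3.09%), and Adam23 and Adamts7 higher in liver (3.71%). Adam12, Adam19, Adam23 and Mmp14 were called lower in brain than in both other tissues (3.31% of all genes), and Adamts1, Adamts10, Mmp15 and Mmp25 lower in liver (3.59%). No gene of the family was called lower in lung than in both others (1.49%). Without lung 2 the genes lowest in brain were 2, and without any 1 of the lung libraries those highest in lung and those highest in liver were 1 each.

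**Figure D1:**
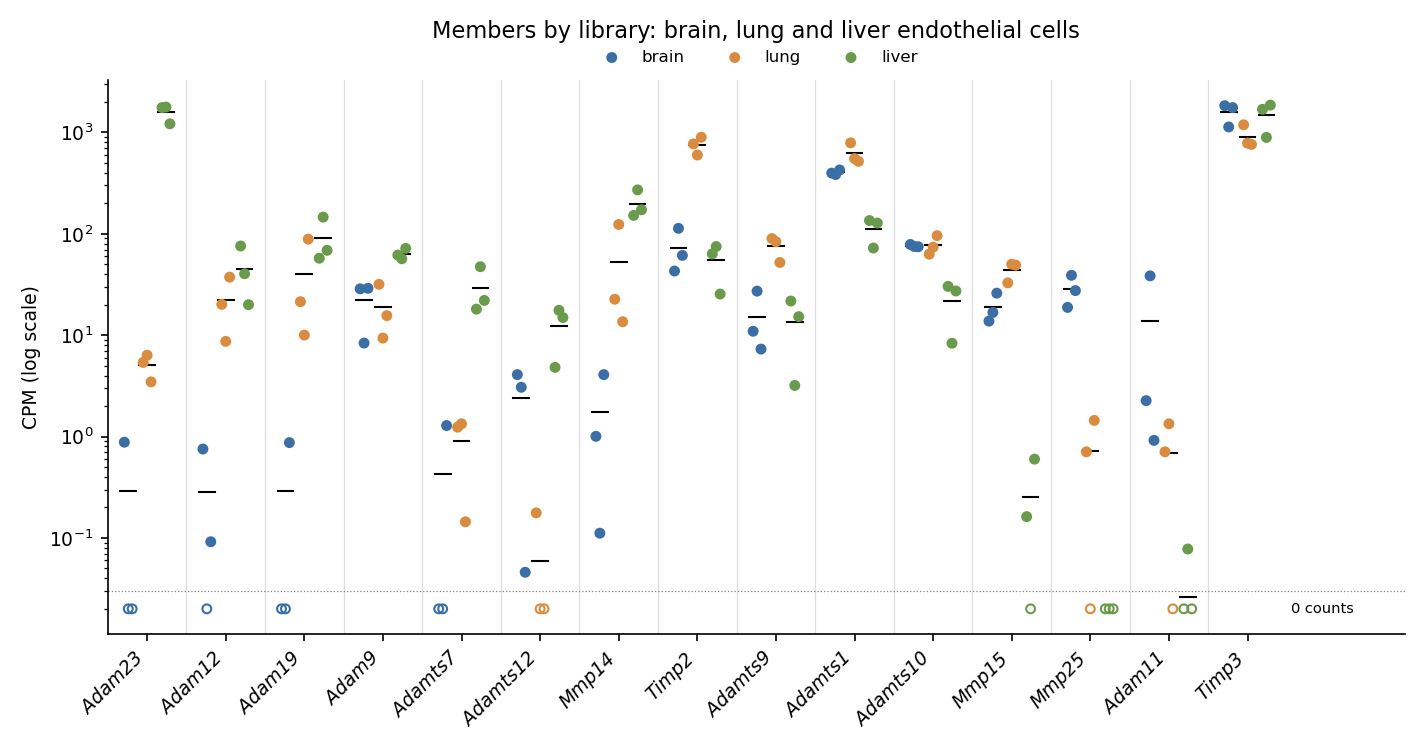
CPM on a log axis for the 14 genes called in at least 1 comparison and for Timp3, with 1 point per library, 3 libraries per tissue and a bar at the mean. Open circles at the bottom mark libraries with 0 counts. Adam23 stands above 1000 CPM in the 3 liver libraries alone, and the 3 tissues lie close together for Timp3.

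The inhibitors were split between a pair with many reads and a pair close to 0. Timp3, the TIMP that is held in the matrix and blocks ADAMs as well as MMPs, read 1835, 1132 and 1758 CPM across brain libraries 1 to 3, 1189, 784 and 762 across lung, and 1689, 892 and 1859.7 across liver. The tissues overlapped in each comparison. Lung was lower than brain (log2 difference of brain minus lung 0.84, SE 0.26, edgeR adjusted p = 0.0467) and than liver (-0.90 for lung minus liver, SE 0.26, edgeR adjusted p = 0.0317), both under the minimum fold, so Timp3 was not called. Brain and liver differed by -0.05 (SE 0.26, edgeR adjusted p = 0.933). Without brain 2 or without lung 1 the brain minus lung difference came to 1.035 or 1.066 and was called, and without lung 1 or liver 2 the lung minus liver difference came to -1.125 or -1.079 and was called. Timp3 shares its locus with Syn3, whose mean was 46.7 CPM in brain, 13.8 in lung and 15.99 in liver.

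Timp2, which blocks MMPs and is also known to help Mmp14 activate Mmp2, read 42.9, 113 and 61.3 CPM across the brain libraries, 770.4, 599 and 897 across lung, and 63.4, 74.9 and 25.5 across liver. Every lung library lay above every library of the other tissues. The log2 difference was -3.32 for brain minus lung (SE 0.48, edgeR adjusted p = 0.000379) and 3.48 for lung minus liver (SE 0.48, edgeR adjusted p = 0.000247). Brain and liver differed by 0.16 (SE 0.44, edgeR adjusted p = 0.864). Leukocyte and lung epithelial markers were also higher in lung, as given above, and their part in this difference was not tested. Timp1 had 9 counts over all libraries, 7 of them in lung 1 and 2 in liver 3. Timp4 had 16 counts, 3 in brain 1 and 13 in lung 3. Neither was tested. Timp1, Timp3 and Timp4 overlap the synapsin genes Syn1, Syn3 and Syn2, and whether counting used strand is not given in the sources used here.

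The promoter windows of Timp2 and Timp3 are shown because these were the inhibitors with reads. Each window runs from 250 bases before to 50 bases after the gene start in RefSeq on GRCm38.p6, 5′ to 3′ on the gene's strand: chr11:118355362-118355661 on the minus strand for Timp2 and chr10:86300162-86300461 on the plus strand for Timp3. Capitals mark GC boxes, searched as GGGCGG on both strands, which 35.7% of the 32851 RefSeq promoters hold.
Timp2: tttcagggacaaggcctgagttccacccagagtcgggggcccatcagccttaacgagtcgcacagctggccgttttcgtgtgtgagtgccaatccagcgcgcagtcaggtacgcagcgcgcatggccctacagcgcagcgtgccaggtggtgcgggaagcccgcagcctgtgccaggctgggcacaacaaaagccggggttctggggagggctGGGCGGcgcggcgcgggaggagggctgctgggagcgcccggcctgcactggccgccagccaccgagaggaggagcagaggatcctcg
Timp3: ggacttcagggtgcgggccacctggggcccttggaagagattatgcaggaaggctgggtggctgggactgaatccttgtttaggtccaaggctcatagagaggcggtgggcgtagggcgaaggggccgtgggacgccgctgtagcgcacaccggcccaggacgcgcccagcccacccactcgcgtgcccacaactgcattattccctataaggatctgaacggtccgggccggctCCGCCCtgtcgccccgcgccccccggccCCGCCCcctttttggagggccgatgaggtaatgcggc
The Timp2 window held 25 CpG dinucleotides and 1 GC box, and the Timp3 window 24 and 2, against a median of 7 CpG over all promoters. Neither held the TATA box searched as TATAAA.

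Among 11 ADAMs known to have a catalytic site, 6 were tested. None was called higher in brain; Adam12 and Adam19 were called lower in brain than in both other tissues, and Adam9 lower in lung than in liver. Adam12, known from muscle and placenta, read 0.754, 0 and 0.0918 CPM across the brain libraries, 20.2, 8.69 and 37.4 across lung, and 75.8, 40.4 and 20.0 across liver. Brain lay below both tissues in every library, and lung and liver overlapped. The log2 difference was -6.27 for brain minus lung (SE 1.13, edgeR adjusted p = 0.00222) and -7.56 for brain minus liver (SE 1.19, edgeR adjusted p = 0.000524).

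Adam19, a sheddase of neuregulin needed in heart development, read 0, 0 and 0.872 CPM across the brain libraries, 21.4, 10.0 and 88.7 across lung, and 57.5, 146 and 68.7 across liver. The order of the tissues was that of Adam12, again with lung and liver overlapping. The log2 difference was -6.85 for brain minus lung (SE 1.37, edgeR adjusted p = 0.00648) and -8.38 for brain minus liver (SE 1.45, edgeR adjusted p = 0.00191). All brain reads of Adam19 were 19 counts in brain 3. Without that library brain had no count, and against a floor of 3 counts over the other two, lung was at least 452-fold and liver at least 1024-fold higher. For lung minus liver the difference was -1.29 for Adam12 (edgeR adjusted p = 0.378) and -1.53 for Adam19 (edgeR adjusted p = 0.385). Fibroblast markers also differed: 9 of them summed to 3.458 to 27.15 CPM in brain with Dcn and Lum at 0, 33.42 to 63.83 in lung and 11.4 to 24.51 in liver with Lum and Dpt at 0. Hepatic stellate markers summed to 120.8 to 196.3 CPM in brain, 214.1 to 746 in lung and 205.3 to 237.4 in liver over 7 genes. Their part in the differences of Adam12 and Adam19 was not tested.

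Adam9, a widely present ADAM, read 28.7, 8.36 and 29.0 CPM across the brain libraries, 31.7, 9.36 and 15.6 across lung, and 61.7, 56.7 and 71.8 across liver. Liver lay above the other tissues in every library. The lung minus liver difference was -1.98 (SE 0.59, edgeR adjusted p = 0.0386) and the brain minus liver difference -1.70 (SE 0.59, edgeR adjusted p = 0.0644). The call between lung and liver was lost in 6 of 13 alternatives, among them each fit without lung 2, lung 3 or any liver library. Adam17, the enzyme that frees tumour necrosis factor from the cell surface, read 79.4, 61.8 and 72.3 CPM across the brain libraries, 52.2, 45.8 and 39.6 across lung, and 49.98, 41.5 and 35.7 across liver. Brain was above the others in every library, but the log2 differences of 0.68 (SE 0.38, edgeR adjusted p = 0.284) and 0.55 (SE 0.38, edgeR adjusted p = 0.383) were not called. Adam15, which carries an integrin-binding motif, had means of 102 ± 11.1 CPM in brain, 72.3 ± 24.5 in lung and 61.2 ± 30.8 in liver (SD, n = 3 each), with log2 differences between 0.54 and -0.08 that were not called. Adam8, an ADAM of leukocytes, stayed under 2 CPM in the mean of each tissue.

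Adam23 had the largest fitted difference of the 33 tested genes. It is an ADAM without a working catalytic site, known in neurons as a receptor of LGI proteins and as a ligand of integrins. It read 0.88, 0 and 0 CPM across the brain libraries, 5.39, 6.35 and 3.47 across lung, and 1758, 1778 and 1216 across liver. The order liver, lung, brain held in every library. The log2 difference was -12.73 for brain minus liver (SE 1.15, edgeR adjusted p = 4.6e-05), -8.57 for lung minus liver (SE 0.97, edgeR adjusted p = 0.000278) and -4.15 for brain minus lung (SE 0.95, edgeR adjusted p = 0.0181). The brain value rests on 14 counts, all in brain 1. In the 12 alternatives that keep that library the brain minus liver difference ran from -12.94 to -12.10. The call between brain and lung was lost in 5 of 13 alternatives, including the fits without each lung library in turn. Hepatocyte markers were higher in liver than in lung, by sums of 286.2 to 716.8 against 4.188 to 6.897 CPM. In liver 1 to 3 the hepatocyte sums were 611.7, 286.2 and 716.8 CPM, beside 1758, 1778 and 1216 CPM of Adam23. The part of hepatocytes in the level of Adam23 was not tested.

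The Adam23 promoter window is shown for this range between tissues (RefSeq, GRCm38.p6, chr1:63445641-63445940, plus strand, 5′ to 3′). It held 31 CpG dinucleotides and no match to the TATA box, the GC box or the AP-1 site, searched as TGACTCA on both strands, so no base is in capitals.
Adam23: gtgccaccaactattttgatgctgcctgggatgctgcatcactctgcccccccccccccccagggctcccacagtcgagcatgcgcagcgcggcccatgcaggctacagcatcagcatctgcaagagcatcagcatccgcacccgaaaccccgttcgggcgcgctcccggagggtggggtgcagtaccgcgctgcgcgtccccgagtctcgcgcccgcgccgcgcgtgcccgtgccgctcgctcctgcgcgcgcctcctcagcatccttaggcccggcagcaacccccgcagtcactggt

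Of 11 ADAMs known to lack a catalytic site or mainly from testis, 4 were tested, Adam4, Adam11, Adam22 and Adam23, and 5 had no count. Adam11, a neuronal member of the same branch as Adam22 and Adam23, read 2.26, 38.5 and 0.918 CPM across the brain libraries, 0.707, 1.34 and 0 across lung, and 0, 0.0778 and 0 across liver. One library set its mean: brain 2 held 690 of its 746 counts in brain. The call higher in brain than in liver (log2 difference 8.33, SE 2.15, edgeR adjusted p = 0.0163) was lost without liver 3 and without brain 2, where the difference was 5.183 (edgeR adjusted p = 0.18, over a range of 5.36e-05 to 0.18 in 13 alternatives). Brain 2 was also the brain library with the highest sum of 8 choroid plexus epithelial markers, 1745 CPM against 191.7 in brain 1 and 563.7 in brain 3, and the part of such cells was not tested. In the single cells of brain described below, Adam11 had 163 UMIs in 155 cells, 1.66% of the cells. Adam22, also a receptor of LGI proteins, read 54.6, 6.69 and 1.79 CPM in brain, a coefficient of variation of 138.8%, and was not called in any comparison. Adam4 had means of 10.2, 7.15 and 14.0 CPM in brain, lung and liver, was not called, and overlaps Cox16, whose means were 50.8, 16.8 and 104 CPM.

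Of 7 ADAMTS proteoglycanases, which cut versican, aggrecan and their relatives, 4 were tested. Adamts1 read 397, 384 and 426 CPM across the brain libraries, 789.6, 552 and 518 across lung, and 135, 72.4 and 128 across liver. The tissues did not overlap, in the order lung, brain, liver. Liver was lower than brain (log2 difference of brain minus liver 1.70, SE 0.25, edgeR adjusted p = 0.000351) and than lung (lung minus liver 2.27, SE 0.26, edgeR adjusted p = 4.97e-05). Brain minus lung was -0.57 (SE 0.25, edgeR adjusted p = 0.164) and not called.

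Adamts9 read 10.9, 27.2 and 7.30 CPM across the brain libraries, 89.7, 83.6 and 52.1 across lung, and 21.7, 3.19 and 15.2 across liver. Lung lay above the other tissues in every library, and brain and liver overlapped. The fitted log2 difference was -2.27 for brain minus lung (SE 0.67, edgeR adjusted p = 0.0409) and 2.34 for lung minus liver (SE 0.68, edgeR adjusted p = 0.0317). The first call was lost in 6 of 13 alternatives and the second in 5 of 13, among them fits without brain 1, brain 3, a lung library, liver 2 or liver 3. Leukocyte markers were higher in lung here too, and their part was not tested. Adamts4 and Adamts5, known as the aggrecanases of cartilage, had no tissue mean above 7.90 and 0.715 CPM and were not called.

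Among the ADAMTS proteases of other roles, Adamts10, which binds fibrillin microfibrils, read 78.5, 75.0 and 74.6 CPM across the brain libraries, 63.0, 73.9 and 95.9 across lung, and 30.3, 8.33 and 27.3 across liver. Brain and lung overlapped and liver lay below both. On the log2 scale the difference was 1.68 for brain minus liver (SE 0.44, edgeR adjusted p = 0.0184) and 1.65 for lung minus liver (SE 0.44, edgeR adjusted p = 0.0226). Both came to the edge of the threshold when a library was left out: without brain 3 the first had an edgeR adjusted p of 0.0502 (range over 13 alternatives 0.00132 to 0.0502), and without lung 2 or lung 3 the second was lost, with an edgeR adjusted p of up to 0.093 (range 0.00132 to 0.093). The brain values of Adamts10 had a coefficient of variation of 2.9%, the lowest among the 57 tissue values of the family with a mean of at least 5 CPM.

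Adamts7 and Adamts12, are both known to cut cartilage oligomeric matrix protein. Adamts7 was called higher in liver than in both other tissues, and Adamts12 higher in liver than in lung. Adamts7 read 0, 0 and 1.28 CPM across the brain libraries, 1.24, 1.34 and 0.144 across lung, and 18.1, 47.4 and 22.04 across liver. No liver library overlapped the others. The fitted log2 difference was -6.23 for brain minus liver (SE 1.55, edgeR adjusted p = 0.0134) and -5.35 for lung minus liver (SE 1.52, edgeR adjusted p = 0.0301). All brain reads of Adamts7 lay in brain 3. The brain minus lung difference of Adamts7 was -0.88 with all libraries and not called. Without brain 3 it was called (edgeR adjusted p = 0.0324), with lung at least 10.2-fold above a floor of 3 counts over the brain libraries left. The call against brain was lost without liver 2 and that against lung in 5 of 13 alternatives, without lung 1, lung 2, lung 3 or liver 2 and with the replicate number as a block.

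Adamts12 read 4.09, 3.07 and 0.0459 CPM across the brain libraries, 0.177, 0 and 0 across lung, and 4.81, 17.6 and 14.9 across liver. The lung reads came to 2 counts. Only lung minus liver was called (log2 difference -7.42, SE 1.79, edgeR adjusted p = 0.0128), and without lung 2 or lung 3 it was not. Adamts14, a procollagen propeptidase, read 6.37, 12.7 and 29.0 CPM in lung and was not called. Adamts13, which cuts von Willebrand factor and comes mainly from hepatic stellate cells, had 35 counts in all and was not tested. Adamts17 was read in liver 2 at 33.6 CPM and at 0 in liver 1 and liver 3, and was not called.

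Membrane-type MMPs are anchored in the plasma membrane, and 5 of the 6 were tested. Mmp14, Mmp15 and Mmp25 were called in at least 1 comparison, while Mmp17 and Mmp24 had no tissue mean above 3.07 and 1.54 CPM and were not called. Mmp14, which cuts collagen and activates Mmp2, read 1.01, 0.111 and 4.08 CPM across the brain libraries, 22.6, 124 and 13.6 across lung, and 152, 271 and 173 across liver. The 3 tissues did not overlap, in the order liver, lung, brain. On the log2 scale the difference was -7.01 for brain minus liver (SE 1.33, edgeR adjusted p = 0.00491) and -4.84 for brain minus lung (SE 1.21, edgeR adjusted p = 0.0267). Lung minus liver was -2.18 (SE 1.06, edgeR adjusted p = 0.214).

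The call of Mmp14 between brain and lung was lost in 4 of 13 alternatives: without lung 2, without brain 1, with no filter on low counts and with the replicate number as a block. Without lung 2 the difference was -3.239 (edgeR adjusted p = 0.0638, over a range of 2.62e-06 to 0.102 in the 13). Lung 2 held the highest sums of the lung libraries for lung epithelial markers (1838 CPM against 378.1 and 684.9), hepatic stellate markers (746 against 214.1 and 340.2) and 5 mesothelial markers (36.1 against 0.796 and 0). It also held the highest sum of endothelial markers (13550 against 9409 and 11090). Its sums were the lowest for mural markers (33.09 against 53.76 and 40.43) and fibroblast markers (33.42 against 58.18 and 63.83). The part of other cell types in the Mmp14 level of lung was not tested. The call between brain and liver held in all 13 alternatives.

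Mmp15, a close relative of Mmp14, was called lower in liver than in both other tissues. It read 13.8, 16.8 and 25.97 CPM across the brain libraries, 32.8, 50.1 and 49.1 across lung, and 0.162, 0 and 0.599 across liver. Liver lay below both tissues in every library. The fitted log2 difference was 6.10 for brain minus liver (SE 1.00, edgeR adjusted p = 0.000722) and 7.26 for lung minus liver (SE 1.05, edgeR adjusted p = 0.000354). Brain minus lung was -1.16 (SE 0.79, edgeR adjusted p = 0.399), although the libraries of the 2 tissues did not overlap.

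Mmp25, which is held in the membrane by a lipid anchor and is best known from neutrophils, read 18.8, 39.0 and 27.5 CPM in brain, 0.707, 0 and 1.44 in lung, and 0 in each liver library. Brain stood apart from both tissues. The log2 difference of brain minus lung was 5.26 (SE 1.13, edgeR adjusted p = 0.00972). Against a floor of 3 counts over the liver libraries, brain was at least 640.1-fold higher (edgeR adjusted p = 0.000322) and lung at least 16.1-fold higher (edgeR adjusted p = 0.0121), both for counting error only. Lung overlapped liver, since lung 2 was also at 0. The calls of Mmp25 held in every alternative that gave a value. Leukocyte markers summed to 0.2787 to 7.858 CPM in brain and 114.2 to 164.5 in lung, and their part in the Mmp25 level was not tested. Mmp25 overlaps Bicdl2, a gene not in the count table.

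The Mmp25 promoter window is shown as that of the only gene of the family called higher in brain than in both other tissues (RefSeq, GRCm38.p6, chr17:23645220-23645519, minus strand, 5′ to 3′). It held 18 CpG dinucleotides and 2 GC boxes, in capitals, and neither a TATA box nor an AP-1 site.
Mmp25: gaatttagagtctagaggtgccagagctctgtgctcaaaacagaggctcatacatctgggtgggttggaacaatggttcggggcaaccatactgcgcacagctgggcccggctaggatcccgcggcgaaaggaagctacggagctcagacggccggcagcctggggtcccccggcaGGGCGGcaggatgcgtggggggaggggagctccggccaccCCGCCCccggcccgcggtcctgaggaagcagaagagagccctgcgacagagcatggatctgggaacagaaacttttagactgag

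The gelatinases, which degrade type IV collagen of basement membranes, were low. Mmp2 read 0, 0.892 and 0 CPM across the brain libraries, 2.56, 8.69 and 5.49 across lung, and 0.325, 0.506 and 0.171 across liver. Lung lay above both tissues in every library, but the differences were not called (edgeR adjusted p = 0.185 against brain and 0.212 against liver). Mmp9 had 13 counts in all, 5 in brain 1 and 8 in lung 3, and was not tested. Mmp28, a secreted MMP of epithelia, had means of 16.7 ± 3.40 CPM in brain, 32.0 ± 8.91 in lung and 7.38 ± 9.25 in liver (SD, n = 3 each) and was not called. Mmp19 had means of 5.55, 6.94 and 3.21 CPM and was not called either.

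Most of the collagenases, stromelysins and their relatives were at or near 0. Mmp3, Mmp7 and Mmp10 had no count, Mmp8 had 8 and Mmp13 had 13. RefSeq places Mmp13, Mmp12, Mmp3, Mmp10, Mmp8, Mmp27, Mmp20 and Mmp7 in 1 run of 10 neighbouring MMP genes, and these 8 had 23 counts in all. Counts of 0 allow up to 0.0539 CPM over the brain libraries, 0.141 over lung and 0.0444 over liver, for counting error only. A second run of neighbours, Adam24, Adam25, Adam20 and Adam39, had no count. In another run, of Adam18, Adam3, Adam5, Adam32 and Adam9, nearly all of the 6024 counts were those of Adam9 (6009).

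Promoter windows were found for 41 of the 70 genes and are described by their CpG content, with no test. The 21 windows of genes that passed the count filter held 2 to 44 CpG, median 20. The 10 of genes with counts below the filter held 0 to 41, median 3.5, with Adamts2 and Adamts3 at 41. The 10 of genes without a count held 0 to 41, median 1, with Adamts20 at 41. The ranges of the groups overlapped. A TATA box together with an AP-1 site, the element bound by Fos and Jun proteins, stood in 5 of the 41 windows, those of Mmp3, Mmp10, Mmp12, Mmp13 and Adam29, and in 0.941% of all promoters. None of the 5 genes passed the filter. Alone, the TATA box was in 13.6% and the AP-1 site in 5.2% of all promoters. Such matches are letters in a window, not measured sites.

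The windows of Mmp13 (chr9:7272264-7272563) and Mmp3 (chr9:7445572-7445871), both on the plus strand of GRCm38.p6 in RefSeq, are shown as examples of those without GC boxes. Capitals mark the AP-1 site and, after it, the TATA box.
Mmp13: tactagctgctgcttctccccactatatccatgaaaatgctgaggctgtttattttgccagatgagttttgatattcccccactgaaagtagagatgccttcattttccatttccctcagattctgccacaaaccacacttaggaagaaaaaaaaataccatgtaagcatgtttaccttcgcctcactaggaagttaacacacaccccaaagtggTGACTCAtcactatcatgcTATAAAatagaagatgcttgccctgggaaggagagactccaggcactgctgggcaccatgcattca
Mmp3: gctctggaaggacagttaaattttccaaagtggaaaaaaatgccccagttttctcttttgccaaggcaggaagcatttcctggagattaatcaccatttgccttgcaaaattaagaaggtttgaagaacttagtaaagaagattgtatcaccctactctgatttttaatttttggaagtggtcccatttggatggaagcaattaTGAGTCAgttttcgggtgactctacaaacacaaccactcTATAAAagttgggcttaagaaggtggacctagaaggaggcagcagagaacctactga
The AP-1 site began 35 bases before the listed start in Mmp13 and 46 before it in Mmp3. Each window held 1 CpG dinucleotide, against 24 in that of Timp3 shown above.

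**Figure D2:**
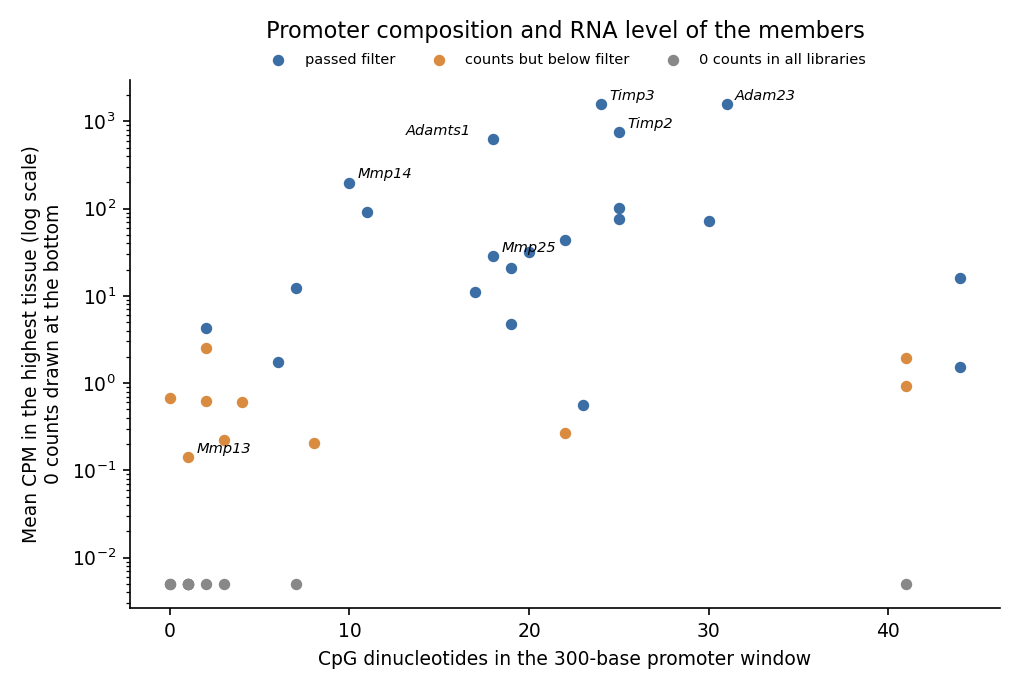
CpG dinucleotides in the 300-base promoter window (x) against the mean CPM of the tissue where a gene was highest (y, log axis) for the 41 genes with a window, colored by whether the gene passed the count filter. Genes without counts are drawn at the bottom, mostly at few CpG, and genes that passed the filter spread from 2 to 44 CpG.

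**Figure D3:**
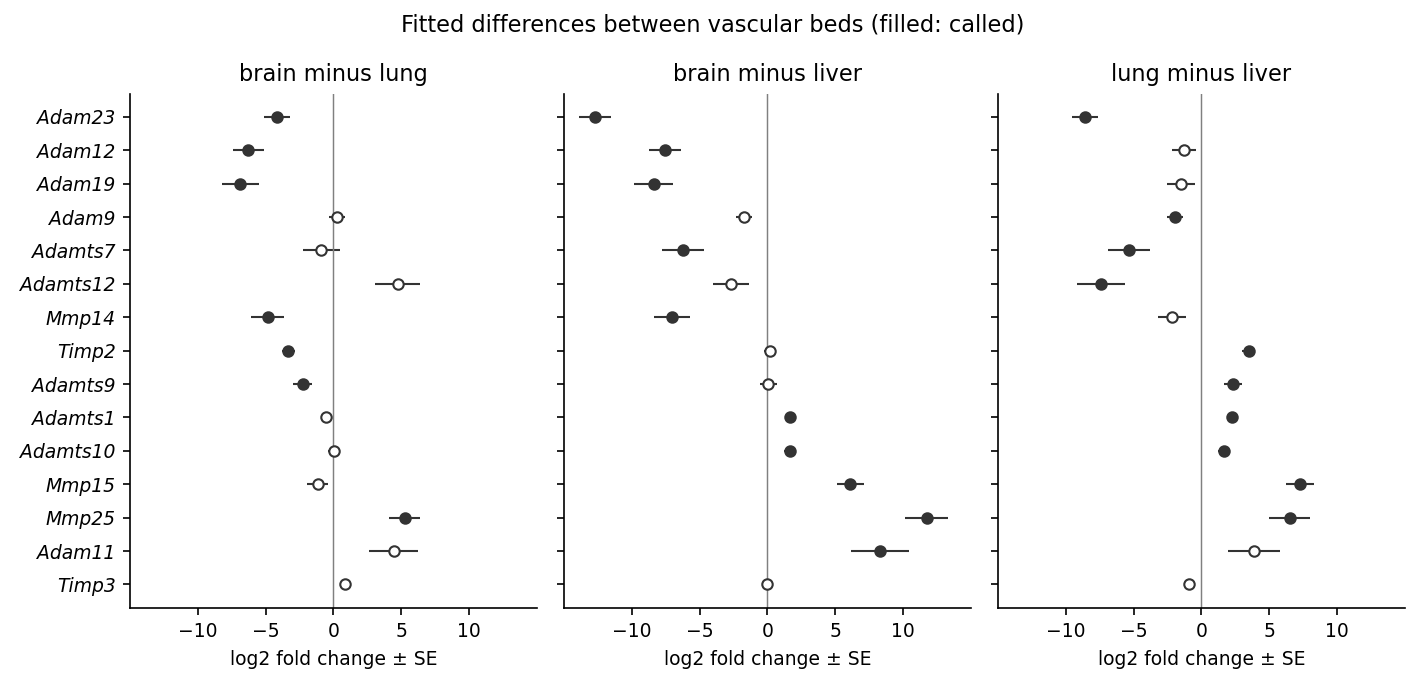
Log2 fold changes with standard errors from the edgeR fit for the 14 genes called in at least 1 comparison and for Timp3, in 3 panels for brain minus lung, brain minus liver and lung minus liver. Filled points were called. Points for Mmp14 and Mmp15 lie on opposite sides of 0 in the brain minus liver panel, and the liver libraries had 0 counts of Mmp25, so that its fitted value there is no bound.

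Genes that act with these proteases were described from lists. Of 16 activators, cofactors and other inhibitors, 14 were tested. Counted as higher and lower in the first-named tissue, calls numbered 2 and 2 for brain against lung, 3 and 2 for brain against liver, and 3 and 0 for lung against liver. Of all genes tested, 5.05% and 7.25%, 7.45% and 8.72%, and 8.04% and 7.02% were called in the same order. Reck, a membrane inhibitor of MMPs that also serves Wnt signalling at the blood-brain barrier, had means of 242 ± 82.8 CPM in brain, 8.14 ± 6.26 in lung and 0.737 ± 1.14 in liver (SD, n = 3 each). On the log2 scale the difference was 4.93 against lung (SE 1.16, edgeR adjusted p = 0.0182) and 8.24 against liver (SE 1.35, edgeR adjusted p = 0.00181). Bsg, the MMP inducer basigin, had means of 2917 ± 402, 75.9 ± 32.2 and 70.1 ± 17.7 CPM and was called higher in brain than in both. Rhbdf2, which carries Adam17 to the cell surface, had 38.0 ± 15.8, 99.9 ± 39.2 and 5.55 ± 6.18 CPM and was called lower in liver than in both. Cd44, a docking site for MMPs, had 0.428 ± 0.742, 32.0 ± 7.76 and 5.86 ± 4.94 CPM and was called lower in brain than in lung.

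Of 7 ADAMTS-like proteins and papilin, relatives without a protease domain, 6 were tested. Adamtsl4, Adamtsl5 and Thsd4 were called higher in lung than in both other tissues (3.09% of all genes tested were). Adamtsl5 had means of 0.245 ± 0.424 CPM in brain, 110.7 ± 14.1 in lung and 0 in liver. Thsd4 had 0.299 ± 0.155, 42.4 ± 6.26 and 0.602 ± 0.292 CPM, in the same order. Of 8 genes of plasminogen activation, a cascade that activates MMPs, 6 were tested. Among them, Plau and Plaur were called higher in lung than in brain (7.25% of all genes tested were). Plat and Plaur were called higher in lung than in liver (8.04% of all genes). Brain was called higher than liver for Plat and Plaur (7.45% of all genes), and lower for Plau (8.72%). Plaur, the urokinase receptor, had 2.575 ± 1.104, 119 ± 28.4 and 0.255 ± 0.306 CPM, and Plat, tissue plasminogen activator, 196 ± 74.4, 48.1 ± 18.7 and 0.971 ± 0.867. Of 8 astacin and related metalloproteases, 7 were tested. Pcolce2 was called lower in brain than in lung (7.25% of all genes were), and none was called between brain and liver (16.2% in either direction). Pcolce2, Mme and Ece1 were called higher in lung than in liver (8.04%).

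Of 26 membrane substrates of ADAMs, 24 were tested. Higher and lower calls in the first-named tissue numbered 5 and 8 for brain against lung, 5 and 4 for brain against liver, and 5 and 3 for lung against liver, where 5.05% and 7.25%, 7.45% and 8.72%, and 8.04% and 7.02% of all genes were. Tgfa, a growth factor released by Adam17, had means of 94.6 ± 29.0 CPM in brain, 0.236 ± 0.408 in lung and 47.0 ± 21.9 in liver, and was called lower in lung than in both. Cxcl16, a membrane chemokine, had 1.36 ± 1.93, 35.4 ± 12.2 and 217 ± 87.5 CPM and was called in all 3 comparisons. Of 20 matrix and plasma substrates, 18 were tested, with 7 and 4 such calls for brain against lung, 6 and 4 for brain against liver, and 3 and 5 for lung against liver. Fn1, fibronectin, had 1906 ± 126, 35.17 ± 10.51 and 18.3 ± 10.7 CPM and was called higher in brain than in both. Bgn, the proteoglycan biglycan, had 62.9 ± 35.4, 168 ± 14.0 and 2248 ± 184 CPM and was called in all 3, highest in liver.

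Single cells of brain gave a second view of the same genes. After removal of 58 barcodes with over 20% mitochondrial UMIs, 9347 cells remained with a median of 4410 UMIs, 45533840 in all. With 1 library there is no test, and intervals (95%, exact Poisson for sums and exact binomial for shares of cells) cover counting error only. Of the 70 genes, 48 had a UMI, and 15 had at least 100. Timp3 gave 50.42% of the 106367 UMIs of the family, and Timp3 with Adamts1 76.32%.

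Levels are given as UMI CPM, the UMIs of a gene scaled to all UMIs of the cells named. Timp3 had 1178 UMI CPM (interval 1168 to 1188), in 79.6% of cells. Adamts1 had 605 (598 to 612) in 54.6% of cells, Adam15 had 229 (225 to 234) in 54.9%, Adamts10 had 104 (101 to 107) in 35.0% and Adam17 had 82.4 (79.8 to 85.1) in 29.0%. Next in order came Mmp15 with 40.7 UMI CPM, Adamts9 with 22.4, Adam9 with 21.8, Mmp25 with 12.9 and Timp2 with 7.99. The intervals of neighbours in this order did not overlap, except those of Adamts9 (21.1 to 23.8) and Adam9 (20.5 to 23.2). In a cluster of 266 erythroid-like cells, with a median of 7731 UMIs, Timp3 was in 19.5% of cells, Adamts1 in 12.8%, Adam15 in 15.4%, Mmp25 in 1.13% and Timp2 in 1.13%. Whether free RNA or cells captured together gave these UMIs was not tested. Erythroid markers took 853800 UMI CPM in this cluster, so its shares do not measure free RNA in the other clusters.

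Several genes low in bulk brain RNA were also sparse in single cells, but the 2 measures did not match for every gene. Mmp14 had 48 UMIs, Adam19 had 28, Adamts7 had 12, Adam23 had 6, Mmp2 had 6 and Adam12 had 3 among all cells. Timp1 had 33 and Timp4 19. Adamts5, low in bulk RNA as given above, had 157 UMIs in 100 cells. Adam22 had 16 UMIs, although its mean in bulk brain RNA was 21.0 CPM, with 54.6 in the highest library. Mmp9, Mmp3 and Mmp10 had none: taking 3 cells as the limit that a count of 0 allows, 0 of 9347 cells allows a share with a UMI of up to 0.0321%. Of the 8 genes in the run of neighbouring MMPs, 7 had no UMI.

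Cells were clustered without the 70 genes. Of 11 clusters, 5 could be named from marker genes: cluster 4 artery-like (997 cells, led by Mgp, Gkn3, Fbln5 and Bmx), cluster 5 vein-like (223 cells, led by Vcam1, Lcn2 and Icam1), cluster 9 fenestrated-like (167 cells, led by Plvap), cluster 10 erythroid-like and cluster 11 mural-like (55 cells, led by Vtn and Acta2). The vein-like cluster also carried the inflammatory genes Lcn2, Ptgs2 and Cxcl1 among its leading genes. The others are given by number: cluster 6 (1065 cells) was led by Ccn3 and S100a6, cluster 8 (1197 cells) by the stress genes Hspa1b, Hspa1a and Fosb, and clusters 3 and 7 had the lowest median depths, 1977 and 1069 UMIs. Cluster 6 also carried 5 arterial markers, Bmx, Sema3g, Vegfc, Stmn2 and Clu, where the artery-like cluster carried 11. The doublet caller marked 0 cells, so it cannot be taken to have worked, and no doublets were removed.

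Timp3 was highest in fenestrated-like cells, 3172 UMI CPM (3059 to 3288), followed by cluster 6 with 2247 (2213 to 2282), artery-like cells with 1658 (1623 to 1693) and cluster 8 with 1071 (1049 to 1093). Vein-like cells had 429 (394 to 466), and erythroid-like cells 127 (113 to 142). Thinned to 1000 UMIs per cell, Timp3 was found in 94.2% of fenestrated-like cells, 77.6% of cluster 6, 70.3% of artery-like and 27.5% of vein-like cells, against 95.2%, 98.6%, 94.0% and 63.7% before thinning. Adamts1 was highest in cluster 6, 1154 (1130 to 1179), and artery-like cells, 967 (941 to 994), and had 456 (420 to 493) in vein-like cells. Timp3 and Adamts1 thus had different leading clusters, since fenestrated-like cells had 467 (424 to 513) of Adamts1.

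Timp2 was found mainly in artery-like cells, with 232 of its 364 UMIs there. Its level was 43.9 UMI CPM (38.4 to 49.9) in them and 51.6 (29.5 to 83.8) in mural-like cells, on 16 UMIs in 5.45% of those cells, and at most 11.4 (4.17 to 24.7) in any other cluster. A small set of cells carried this: at Leiden resolution 1 an artery-like cluster of 241 cells held 219 Timp2 UMIs, 143 UMI CPM (125 to 164) in 35.7% of its cells. That cluster carried 13 arterial markers. A cluster of 1044 cells with 4 of these markers had 3.01 (1.72 to 4.89). Another, of 507 cells, carried 7 of them, and its Timp2 level is not given here. Within the artery-like cluster 9.53% of cells had a Timp2 UMI. Mural markers summed to 20.0 UMI CPM in the artery-like cluster, against 14.7 to 239 in the other endothelial clusters. Timp4, with 19 UMIs, had 13 in the artery-like cluster, 6 of the 19 in 1 cell.

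Adamts9 and Mmp15 led in fenestrated-like cells, with 70.6 (54.6 to 89.9) and 85.6 (67.9 to 107) UMI CPM. Vein-like cells came next for Adamts9 with 55.3 (43.4 to 69.6), an interval that overlaps. At Leiden resolution 1, where the vein-like cluster grew to 678 cells, it had 26.7 (21.6 to 32.6) of Adamts9, no longer next in order. Mmp25 had 18.2 (15.1 to 21.8) in cluster 1, which was led by Ivns1abp and Angpt2, 16.7 (14.0 to 19.8) in cluster 2 and 16.7 (14.1 to 19.6) in cluster 8, but 8.51 (6.21 to 11.4) in artery-like cells, 5.06 (3.56 to 6.97) in cluster 6 and 3.79 (1.23 to 8.84) in vein-like cells. The larger vein-like cluster at resolution 1 had 11.7 (8.42 to 15.8) of Mmp25. Adamts10 also had its highest values outside artery-like, vein-like and fenestrated-like cells, 175 (165 to 185) in cluster 1 and 186 (173 to 200) in cluster 3. Adam15 differed less, from 172 (164 to 181) in cluster 8 to 354 (338 to 370) in artery-like cells among the endothelial clusters. The UMIs of Adam11 were spread over clusters 1, 2, 3, 6 and 8, with 25, 32, 28, 29 and 33 of them. Artery-like cells held 12 and erythroid-like cells 2.

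Several genes that were low in bulk brain RNA had a large part of their few UMIs in 1 cluster. Others, among them Mmp14, Mmp11, Mmp23 and Adamts12, were spread over most clusters. Fenestrated-like cells were 1.787% of all cells and held 12 of 28 UMIs of Adam19, 7 of 12 of Adamts7 and 11 of 22 of Adamts4. A single cell gave up to 7 of the 22 Adamts4 UMIs. Mural-like cells held 7 of 48 Mmp14 UMIs, 22.6 UMI CPM against 0.907 in all other cells, and cluster 6 held 16 of 48. That cluster made up 11.4% of all cells, with a median of 6479 UMIs per cell against 4410 over all cells. Cluster 6 also held 17 of 33 Timp1 UMIs. These counts are small, and cells of 1 library are not replicates.

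**Figure D4:**
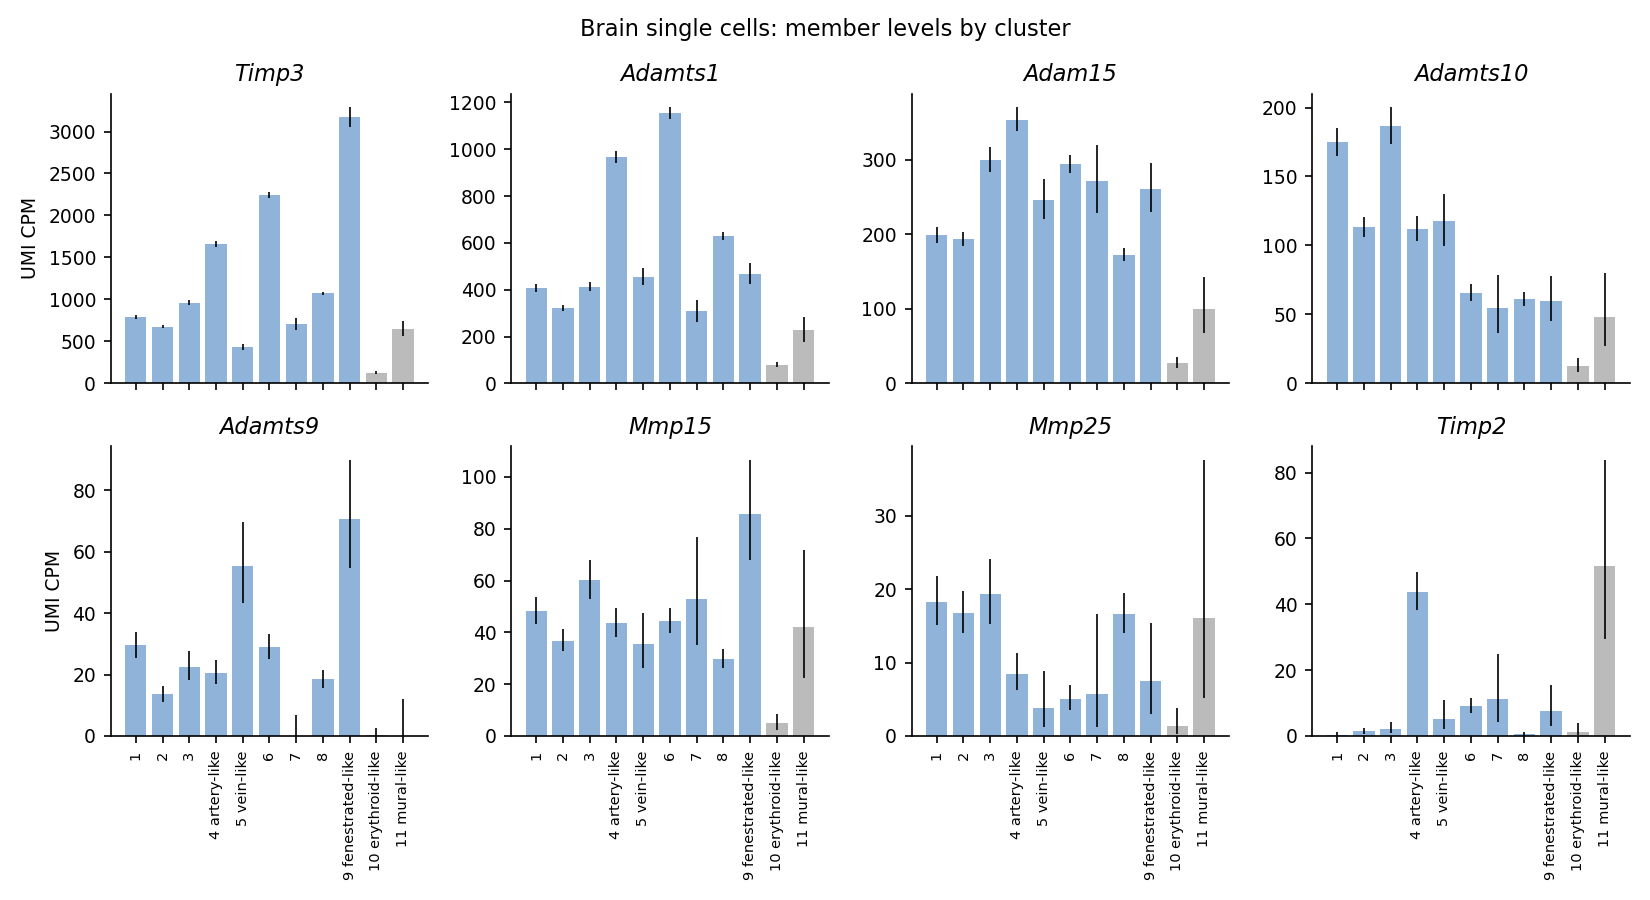
UMI CPM of 8 genes by cluster of brain single cells (bars start at 0; whiskers are 95% exact Poisson intervals for counting error; gray bars are the erythroid-like and mural-like clusters). Timp3 peaks in the fenestrated-like cluster at 3172, Adamts1 in cluster 6 at 1154, and Timp2 in the artery-like and mural-like clusters.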

How the data were processed

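Per the file headers, the bulk table holds the authors' raw counts for each gene symbol, and the single-cell values are deposited UMI counts. Per the submitters' processing notes the tools included TopHat, HTSeq 0.6.1 and Cell Ranger 1.2.0, with no tool or build tied to an assay. What is not given in the sources used here includes strand use, pooling of animals and barcode filters. CPM are counts over library totals. edgeR 4.0.16 in R 4.3.3 kept 13216 genes (filterByExpr), scaled by TMM and fitted all 9 libraries in 1 quasi-likelihood model with a mean per tissue. The biological coefficient of variation was 0.766. A count of 0 over a tissue was set to a floor of 3 counts for folds. Tests were checked on simulated data.

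Single cells needed 500 UMIs and at most 20% mitochondrial UMIs; scanpy 1.11.5 clustered them (2000 variable genes, 30 components, 15 neighbors, Leiden resolution 0.5). Promoters were RefSeq windows on GRCm38.p6; 4 genes had several, and that with most CpG was used. All 70 symbols matched the gene table.

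Alternatives were DESeq2 1.42.0, RLE scaling, library size scaling, library sizes without the rRNA transcript Rn45s, no count filter, no minimum fold, the compared tissues alone, a replicate block and each library left out; the 13 alternatives given for a gene are those except the minimum fold, with the 6 libraries of its comparison. For single cells they were a minimum of 1000 UMIs, thinning to 1000 UMIs and Leiden resolution 1. Genes given in every library were each TIMP and each called gene with a mean of at least 5 CPM in a tissue. The others follow by role, with up to 4 examples. Genes given for lists are called ones with the largest values. The genes, lists and tests were chosen with earlier results of these data known. ATAC counts and protein sequences were not analysed here, and some genes are not reported here.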

Additional observations from a re-analysis of the deposited data

How the results depend on the processing

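Of 27 calls of genes in the family, 16 held in all alternatives, 11 were lost in at least 1, and none changed direction. The calls of Adam12, Adam19, Adamts1, Mmp15, Mmp25 and Timp2 held throughout, as did those of Adam23 and Mmp14 between brain and liver and of Adam23 between lung and liver. With DESeq2, brain against lung gave 3 genes of the family higher in brain and 6 lower (main values 1 and 6). Of all genes, 946 were called higher in brain and 1446 lower (main values 667 and 958). DESeq2 called 9, 11 and 10 genes of the family in the 3 comparisons. It gave 2 genes highest in brain and 1 lowest in lung (main values 1 and 0). Without the count filter 2 genes were lowest in brain (4 before), and without a minimum fold 1 was lowest in lung.

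Replicate numbers are shared between tissues. Same-numbered libraries had correlations of -0.003 to 0.073 of their deviations, so the numbers show no pairing, and not every library correlated best with its own number. With the replicate number as a block, 1 gene was highest in lung (2 without it) and brain against lung gave 1 gene of the family higher and 4 lower in brain.

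Leaving out 1 library at a time gave 1 to 2 genes of the family higher and 3 to 9 lower in brain than in lung, and 4 to 6 higher and 4 to 7 lower in brain than in liver. Lung against liver gave 4 to 7 higher and 1 to 4 lower, the 1 without lung 2 or lung 3. Genes lowest in brain numbered 2 to 6, highest in lung 1 to 2, lowest in lung 0 to 1, highest in liver 1 to 2 and lowest in liver 3 to 5. Over all genes, brain against lung gave 432 to 551 higher and 664 to 745 lower, and lung against liver 742 to 872 higher and 539 to 755 lower.

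With scaling by library totals only, the median over all genes shifted by -0.053, 0.158 and 0.212 in the 3 comparisons. For single cells, Leiden resolution 1 moved 25 of 110 cluster values beyond their intervals, and thinning moved 7 of 10 levels. Lung 2, the shallowest library, sets the weakest detection limit.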
